A study of Mus musculus with 20 samples.

Results

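The genes described are Slit2 and Slit3, which encode secreted guidance ligands, and Robo1, Robo2, Robo3 and Robo4, which encode Roundabout receptors. They were taken by symbol from a table of 33495 genes, so 6 of 33495 were followed, in 20 RNA-seq libraries of embryonic mouse heart. All embryos were C57BL/6 and carried a Cre and the mTmG/+ reporter, and the controls were Cre; Kmt2d fl/+ while the mutants were Cre; Kmt2d fl/fl. Every comparison is therefore between loss of both alleles and loss of a single allele of Kmt2d, a histone H3 lysine 4 methyltransferase, in the cells where the Cre is active. Mesp1Cre, active in early cardiac mesoderm, was studied in whole hearts at E9.0 with 4 mutants and 4 controls. Mef2cAHF::Cre, active in anterior heart field derivatives, was studied in right ventricle and outflow tract at E11.5 with 3 libraries labelled mutant and 3 labelled control. Tnnt2::Cre, active in cardiomyocytes, was studied in whole hearts at E11.5 with 3 mutants and 3 controls. The genes were chosen by family and by their mutant against control values in these libraries, which were already known (Robo3 was among the largest differences in Mef2cAHF::Cre), so those contrasts are given as a description and support nothing.

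Slit proteins are large secreted leucine-rich repeat proteins that bind the immunoglobulin domains of Robo receptors on neighbouring cells and, through adaptor and GTPase-activating proteins, change how those cells move and adhere. They are best known for repelling axons at the midline of the nervous system, and in the mouse heart Slit and Robo genes are known to act in pericardium, cardiac neural crest, caval vein, septum and valve formation. Robo1 and Robo2 are the widely expressed Slit receptors, Robo3 is a divergent member known from commissural axons whose mammalian form binds Slit poorly, and Robo4 is a short receptor known mainly from endothelium.

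The libraries held 21727258 to 45341870 counted reads, with a median of 27845621.5, and cardiomyocyte markers were detected for 10 of 10 listed genes in every group. Kmt2d, listed under its older symbol Mll2, reached 128 to 144 CPM (read counts scaled to a common library size) in Mesp1Cre mutants against 152 to 164 in controls, and 107 to 116 CPM in Tnnt2::Cre mutants against 119 to 159 in controls. Neither fall had an adjusted p below 0.05 by edgeR's quasi-likelihood test. The log2 fold changes were -0.21 ± 0.071 (SE, adjusted p = 0.0764) in Mesp1Cre and -0.35 ± 0.12 (adjusted p = 0.327) in Tnnt2::Cre. In Mef2cAHF::Cre Kmt2d went the other way, with 187 to 194 CPM in the libraries labelled mutant and 146 to 156 CPM in those labelled control. The log2 fold change of Mll2 there was 0.32 ± 0.063 (SE, adjusted p = 0.0359 by edgeR's quasi-likelihood test), although the count spans exons outside the floxed part as well. The sample titles and genotypes of this line also disagree with the names of its columns in the table, where a library titled mutant is named WT and the reverse. By qRT-PCR the study reported significantly lower Kmt2d transcript in E11.5 mutants of this line than in heterozygous controls. Which reading of the genotypes is right was not tested. Groups follow the titles here, and reading the genotypes from the column names turns every sign given for Mef2cAHF::Cre.

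The 6 genes lie on chromosomes 5, 9, 11 and 16 of the mm9 build. Slit2 (ENSMUSG00000031558) spans chr5:48376032-48696750 on the plus strand and Slit3 (ENSMUSG00000056427) chr11:34934726-35522009 on the plus strand. Robo1 (ENSMUSG00000022883) lies at chr16:72663394-73046345 on the plus strand and Robo2 (ENSMUSG00000052516) downstream on the same chromosome at chr16:73892551-74412070 on the minus strand. Robo4 (ENSMUSG00000032125, chr9:37209482-37221608, plus strand) and Robo3 (ENSMUSG00000032128, chr9:37223630-37240748, minus strand) are neighbours that run towards each other, with 2021 bases between their 3′ ends. None of the 6 has exons that overlap the exons of another annotated gene on either strand, so each gene's reads could be told from its neighbours' without strand information.

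Robo3 and Robo4 are the members past the threshold in a mutant against control comparison below, and the 250 bases before their 5′ ends are shown because the neighbouring genes differ in base composition there. The windows are chr9:37240749-37240998 on the minus strand for Robo3 and chr9:37209232-37209481 on the plus strand for Robo4 (mm9), written 5′ to 3′, with capitals marking GGAAG on either strand, the core of many ETS factor sites.
Robo3: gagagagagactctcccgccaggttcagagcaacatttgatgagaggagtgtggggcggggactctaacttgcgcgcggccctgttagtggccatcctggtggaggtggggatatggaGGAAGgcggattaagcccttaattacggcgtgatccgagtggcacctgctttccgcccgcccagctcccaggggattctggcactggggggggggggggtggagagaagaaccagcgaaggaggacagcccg
Robo4: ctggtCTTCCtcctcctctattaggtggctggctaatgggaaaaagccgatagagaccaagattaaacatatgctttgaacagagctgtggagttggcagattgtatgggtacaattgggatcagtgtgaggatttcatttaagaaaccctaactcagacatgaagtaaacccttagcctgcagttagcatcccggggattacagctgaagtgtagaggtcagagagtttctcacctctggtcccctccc
The Robo3 window was 62.4% G or C with 13 CpG dinucleotides, and the Robo4 window 46.8% with 2. Over the same window of 32462 genes the median was 50.8% and 5 CpG. Each held GGAAG once, as did 61.8% of all windows on either strand, so the motif does not set these genes apart. The other members had 10 CpG (Slit2), 21 (Slit3), 11 (Robo1) and 14 (Robo2). ACGTG was found in the Slit3 window alone among the members (15.5% of all windows held it), and TATAAA (14.6%) and AGATAA (11.0%) were found in 0 of the 6. These are letter matches on either strand and not measured sites.

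Levels were compared between genes as FPKM, the read count scaled by the length of the gene model and by the library total. The ligands and Robo1 were the abundant members and Robo3 was the least abundant in every group. In Tnnt2::Cre control hearts Slit2 stood at 21.2 ± 0.712 FPKM (SD, n = 3), Robo1 at 9.33 ± 0.493, Slit3 at 8.41 ± 0.901, Robo2 at 1.65 ± 0.114, Robo4 at 0.852 ± 0.265 and Robo3 at 0.0752 ± 0.0326. The ranges of Robo1 and Slit3 overlapped in that group, and no other neighbours in the order did. Robo1 made up 69.5 to 90.0% of the summed FPKM of the 4 receptors over the 20 libraries. Slit1, the third Slit ligand, had at most 27 reads in any library and 0 reads in 3 of the Mesp1Cre libraries.

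**Figure D1:**
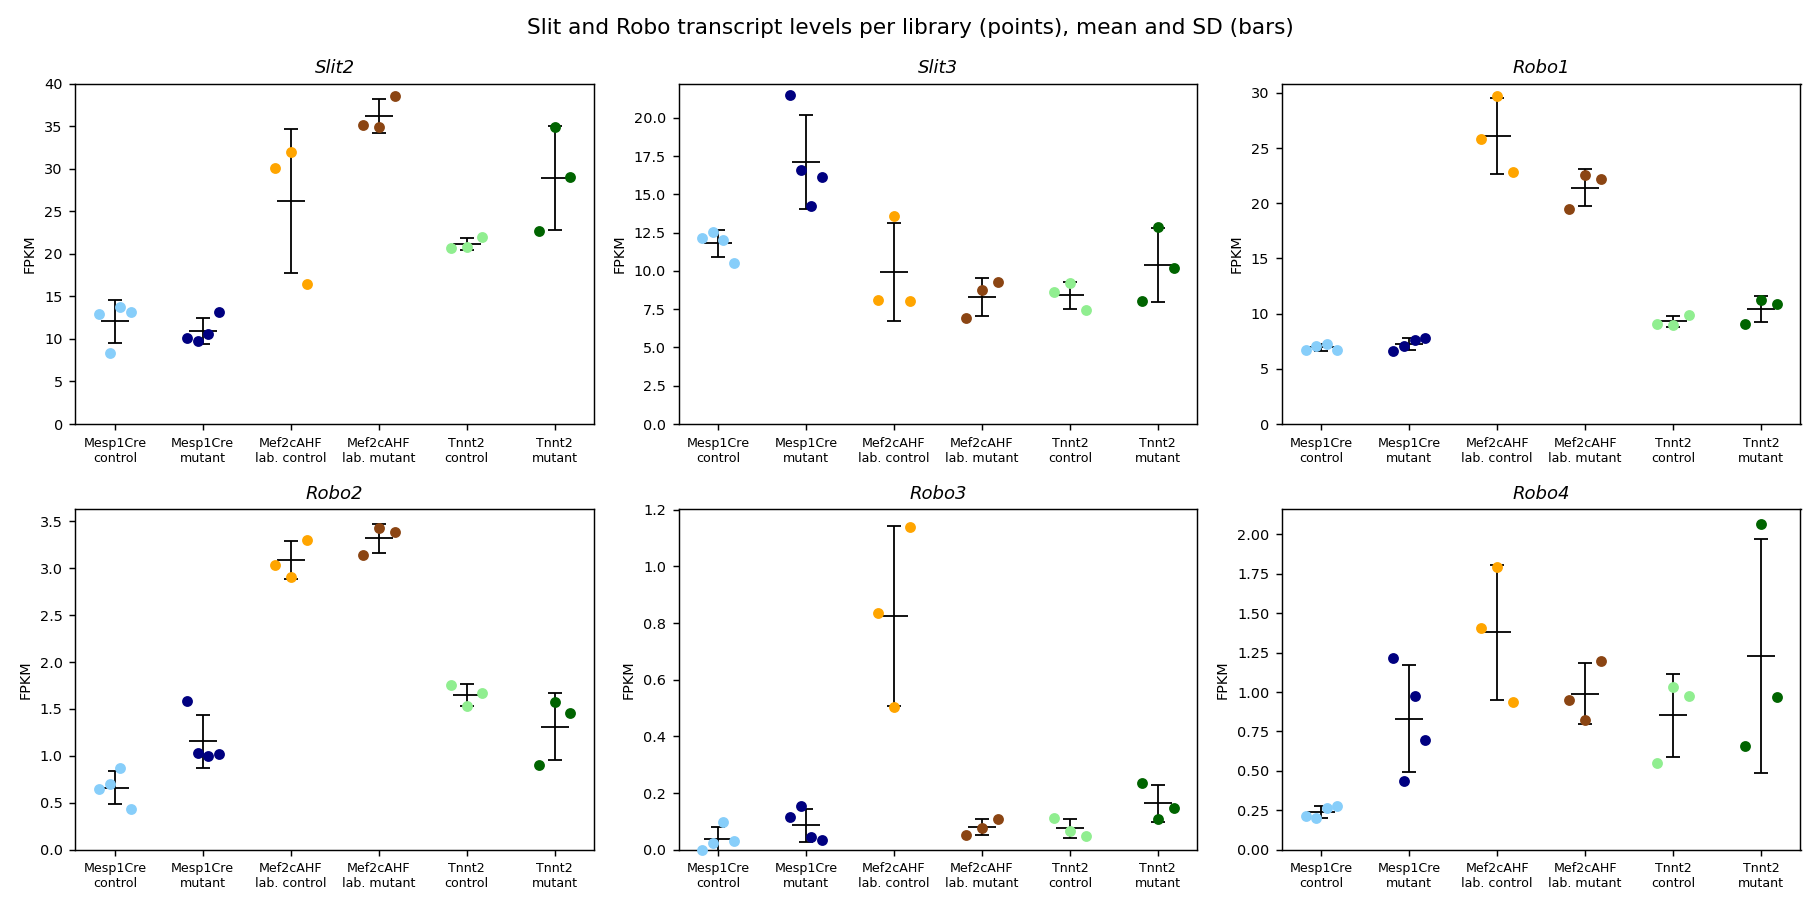
FPKM (y axis, from 0) of each gene in every library (points) of the 6 groups (x axis), with the group mean and SD as bars, those bars ending at the axis where they would pass below 0. Robo1 and Robo2 are highest in both Mef2cAHF::Cre groups, and Robo3 is at 0.503 to 1.14 FPKM in the 3 libraries labelled control of that line and at most 0.237 FPKM in any other library.

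By mean FPKM in controls the order of the members differed between stages, Slit3 lying above Robo1 at E9.0 and below it at E11.5. It was the same in both E11.5 tissues by either reading of the genotypes. In the E9.0 Mesp1Cre controls Slit2 (12.1 ± 2.47 FPKM, n = 4) and Slit3 (11.8 ± 0.892 FPKM) overlapped, while in both E11.5 control groups Slit2 was the higher ligand in every library. The ratio of Slit3 to Slit2 FPKM was 0.946, 1.50, 0.871 and 0.798 in Mesp1Cre control replicates 1 to 4. It was 0.415, 0.442 and 0.338 in the Tnnt2::Cre controls and 0.268, 0.426 and 0.488 in the Mef2cAHF::Cre libraries labelled control. All 4 E9.0 control libraries thus lay above all 6 E11.5 ones. In the Mesp1Cre mutants the ratio was 2.12, 1.70, 1.35 and 1.22, so Slit3 exceeded Slit2 in 4 of 4 mutants and in 1 of 4 controls. In right ventricle and outflow tract of Mef2cAHF::Cre Robo1 stood beside Slit2 by the sample labels, at 26.1 ± 3.44 FPKM (n = 3) in the libraries labelled control against 26.2 ± 8.47 for Slit2. In the libraries labelled mutant, which are the controls by the column names, Slit2 (36.2 FPKM, 34.9 to 38.5) lay above Robo1 (21.4 FPKM, 19.5 to 22.6) without overlap.

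**Figure D2:**
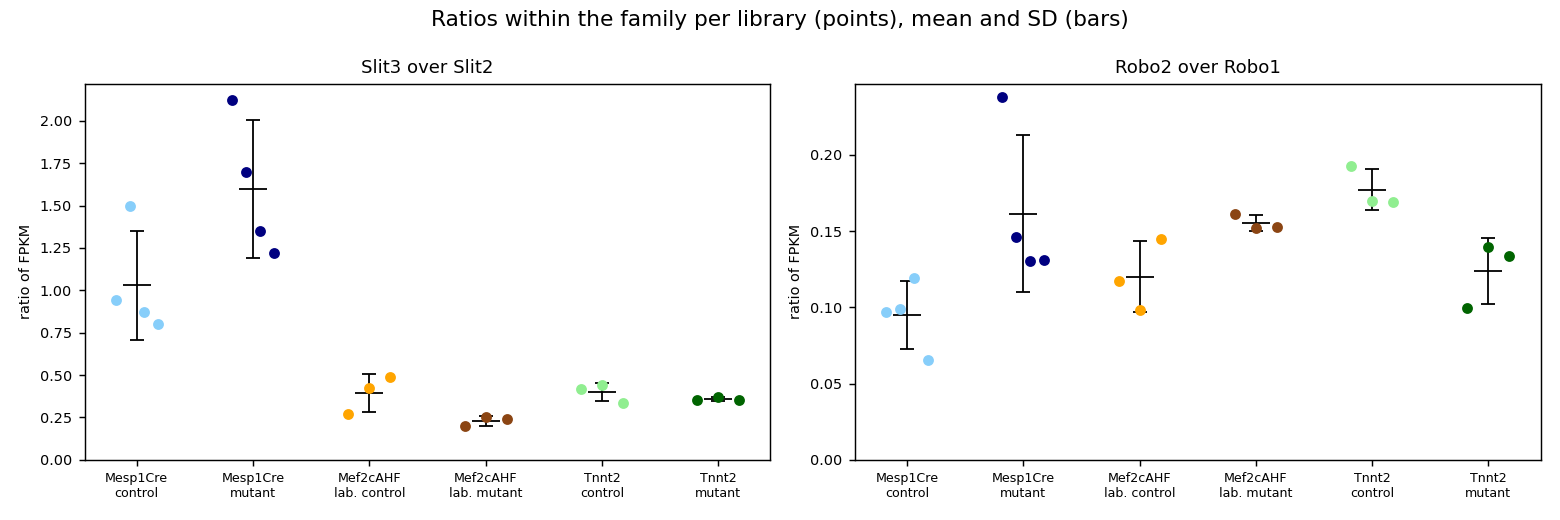
Ratio of Slit3 to Slit2 FPKM (left) and of Robo2 to Robo1 FPKM (right) in every library (points) with group mean and SD (bars), y axes from 0. Slit3 to Slit2 is 0.798 to 2.12 in the E9.0 libraries and 0.197 to 0.488 in the E11.5 libraries, and Robo2 to Robo1 stays between 0.0653 and 0.238 throughout.

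The control groups were also compared with each other. This contrast was not the one the genes were chosen by, but its libraries were the controls of that one, so it is not independent of the choice, and the values of Robo3 and Robo4, the members called between mutant and control, are given without a test. Between E9.0 Mesp1Cre controls and E11.5 Tnnt2::Cre controls, Slit2, Robo1 and Robo2 were lower at E9.0 and Slit3 was higher (adjusted p below 0.05, edgeR). Of all 16697 genes tested 38.3% differed, 19.6% lower and 18.8% higher at E9.0. The groups did not overlap for these genes, as for 45.5% of all genes. Robo4 had the largest difference of the 6, at 0.905, 0.862, 1.10 and 1.17 CPM in the E9.0 hearts and 2.39, 4.57 and 4.50 CPM at E11.5, with a log2 difference of -1.88 ± 0.34 (SE, edgeR). The E9.0 and E11.5 values did not overlap. Robo2 was at 7.49 to 14.5 CPM at E9.0 and 27.2 to 31.2 CPM at E11.5 (log2 difference -1.36 ± 0.18, adjusted p = 1.75e-04 by edgeR). Slit2 was lower at E9.0 by a log2 difference of -0.86 ± 0.14 (adjusted p = 5.84e-04, edgeR) and Robo1 by -0.47 ± 0.083 (adjusted p = 9.98e-04, edgeR). Slit3 was the exception, at 65.9 to 80.2 CPM at E9.0 and 50.8 to 60.1 CPM at E11.5 (log2 difference 0.45 ± 0.096, adjusted p = 0.00326, edgeR). Robo3 had 0, 3, 13 and 4 reads at E9.0 and 26, 13 and 9 at E11.5, and its log2 difference was -1.05 ± 0.84. The library with 0 Robo3 reads allows up to 0.104 CPM, which is 3 reads. This floor covers counting error only.

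Stage here cannot be told apart from the Cre line or from other differences between the libraries of those lines. Depth also differed, at 25581534 to 28790705 counted reads in Mesp1Cre controls and 36809972 to 45341870 in Tnnt2::Cre controls. In whole tissue, fewer cells of a type and less RNA per cell cannot be told apart either. Markers of other cells moved in both directions in the same comparison. Of 10 endothelial genes 4 were lower and 1 higher at E9.0, and their summed level was 421 to 487 CPM in Mesp1Cre controls and 465 to 531 in Tnnt2::Cre controls, each scaled within its line. Of 10 epicardial genes 9 were lower at E9.0 (59.3 to 115 CPM summed against 262 to 316), and 9 of 9 erythroid genes were lower (5470 to 18046 CPM against 95784 to 149846). Of 7 macrophage genes 5 were lower, and 2 of them had 0 reads in every Mesp1Cre control. Smooth muscle genes went the other way, with 4 of 6 higher, 1 lower and a median log2 difference of 0.86. Of 10 cushion and mesenchyme genes 3 were higher and 5 lower, and of 10 cardiomyocyte genes 3 and 3. Of 5 neural and neural crest genes tested 1 was higher and 0 lower. The part of these cell types in the Slit and Robo differences was not tested.

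Control right ventricle and outflow tract of Mef2cAHF::Cre was also compared with control whole heart of Tnnt2::Cre, both at E11.5. By the sample labels Robo1 and Robo2 were higher in right ventricle and outflow tract (39.8% of 17042 genes differed and 18.6% were higher). Robo1 was at 188, 206 and 177 CPM against 75.4, 75.7 and 87.2 CPM in whole heart, a log2 difference of 1.25 ± 0.099 (adjusted p = 5.5e-05 by edgeR). Robo2 was at 46.8, 42.7 and 54.1 CPM against 30.7, 27.2 and 31.2 CPM (0.68 ± 0.11, adjusted p = 0.00118, edgeR). Robo1 and Robo2 were higher in every library labelled control than in any whole heart control, and 53.4% of all genes had groups that did not overlap. Robo1 and Robo2 were higher by both readings of the genotypes, with log2 differences of 1.10 ± 0.086 for Robo1 (adjusted p = 1.28e-05, edgeR) and 0.91 ± 0.081 for Robo2 (adjusted p = 2.60e-05, edgeR) by the column names, where 38.6% of 17271 genes differed.

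Robo3 and Slit2 depended on which libraries were taken as controls. By the sample labels Robo3 was at 4.02, 2.31 and 5.82 CPM in right ventricle and outflow tract and 0.608, 0.374 and 0.276 CPM in whole heart (log2 difference 3.22 ± 0.42), while by the column names the difference was -0.0087 ± 0.45. The high values are from the libraries that also set the Robo3 difference between mutant and control. For Slit2 the sample labels gave 0.067 ± 0.19 and the column names 0.68 ± 0.074, given without a test. The libraries labelled mutant, taken as controls by the column names, also set the Slit2 difference between mutant and control. Slit3 and Robo4 were not past the threshold by either reading. Tissue cannot be told apart from the Cre line here or from other differences between the libraries of those lines. Depth also differed, at 25001020 to 27568922 counted reads in the libraries labelled control and 36809972 to 45341870 in Tnnt2::Cre controls. This comparison shares its Tnnt2::Cre controls with the one between stages. By both readings 9 of 9 erythroid genes were lower in right ventricle and outflow tract. By the sample labels 5 of 10 cushion and mesenchyme genes were higher and 1 lower. Of 7 neural and neural crest genes tested 3 were higher and 0 lower, and of 10 cardiomyocyte genes 2 and 5. Of 10 epicardial genes 3 were higher and 1 lower, of 10 endothelial genes 2 and 2. Smooth muscle genes had 0 higher and 1 lower of 6, and macrophage genes 2 and 1 of 7. By the column names the higher and lower counts were 6 and 0 for cushion and mesenchyme, 2 and 0 of 6 for neural and neural crest. They were 3 and 5 for cardiomyocyte, 0 and 3 for epicardial, 3 and 2 for endothelial, 1 and 1 for smooth muscle, and 0 and 1 for macrophage genes. Their part in the Robo differences was not tested.

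**Figure D3:**
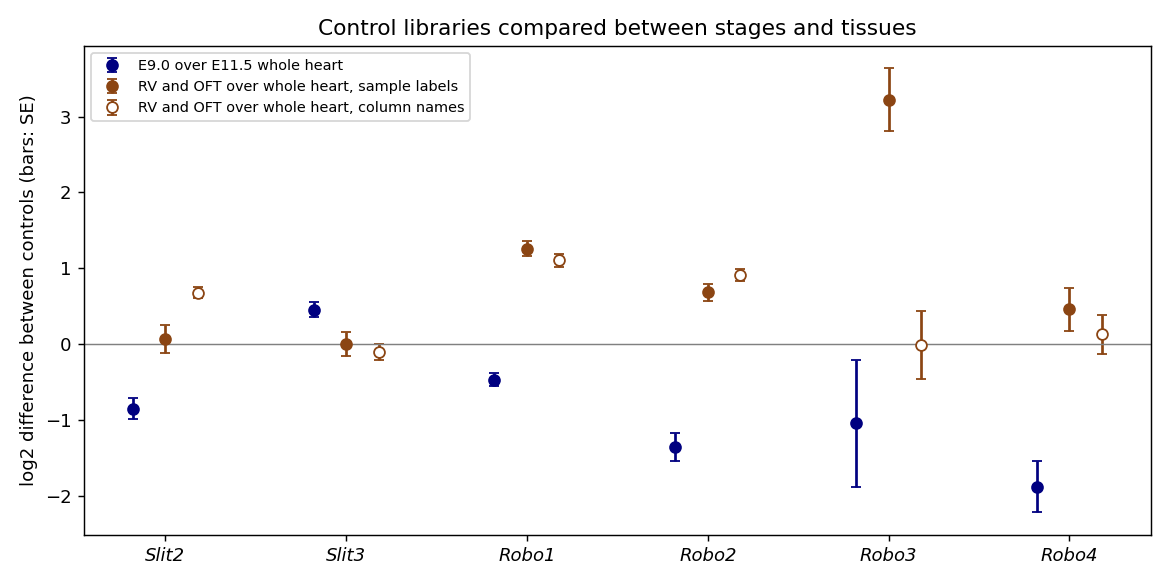
Log2 difference (y axis, bars are SE) of each gene between control groups: E9.0 Mesp1Cre over E11.5 Tnnt2::Cre whole heart, and right ventricle (RV) and outflow tract (OFT) over whole heart with control libraries taken by the sample labels (filled) or by the column names (open). Robo1 and Robo2 stay above 0 in RV and OFT by both readings, while Robo3 is at 3.22 by one and -0.0087 by the other.

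In Mesp1Cre hearts the receptor genes Robo4 and Robo2 and the ligand Slit3 stood higher in every mutant than in any control, and Robo4 alone passed the threshold. Robo4 was at 0.927, 0.881, 1.13 and 1.19 CPM in control replicates 1 to 4 and 4.69, 1.75, 3.81 and 2.65 CPM in mutants. All 4 mutants lay above all 4 controls, with the mutants spread more widely. The log2 fold change was 1.64 ± 0.39 (SE, adjusted p = 0.0187 by edgeR), and Robo4 was the 1 member called higher of 5 tested, with 0 called lower, where 6.17% of the 15883 genes tested were called higher and 5.29% lower. As a share of the summed Robo FPKM, Robo4 was 2.50 to 3.69% in controls and 5.06 to 12.8% in mutants. The call rested on few reads, 21 to 29 in controls and 45 to 109 in mutants. It was lost without control replicate 1 (adjusted p = 0.0511), mutant replicate 1 (0.0736) or mutant replicate 3 (0.0518), and with sex as a covariate (0.0969), at log2 fold changes of 1.59, 1.41, 1.56 and 1.60 in that order (edgeR). Y-linked genes were expressed in 4 of 4 mutants and 2 of 4 controls.

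Endothelial markers were also higher in these mutants. The 10 listed genes summed to 564 to 650 CPM in mutants and 421 to 487 CPM in controls, 8 of 10 had a positive log2 fold change and 3 were called higher, and 0 of the 10 were without reads. The median log2 fold change of the list was 0.37, against -0.0018 over all genes tested. Erythroid genes went the other way, with 4 of 9 called lower and a sum of 1940 to 7616 CPM in mutants and 5470 to 18046 CPM in controls. Cardiomyocyte genes summed to 38990 to 49877 CPM in mutants and 29656 to 37599 CPM in controls, with 1 of 10 called higher and a median of -0.034. Most of these sums was Ttn (named after its values were seen), at 27572 to 37210 CPM in mutants and 18254 to 25144 CPM in controls. The part of these cell types in the Robo4 value was not tested.

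Slit3 was at 78.8, 82.0, 75.0 and 67.4 CPM in the Mesp1Cre controls and 122, 97.7, 82.5 and 90.9 CPM in the mutants. Every mutant lay above every control, by as little as 82.5 against 82.0 CPM, and the log2 fold change was 0.38 ± 0.12 (adjusted p = 0.0565, edgeR). Robo2 was at 11.4, 12.4, 14.8 and 7.66 CPM in controls and 24.5, 16.5, 15.7 and 15.7 CPM in mutants. These groups did not overlap either, and the log2 fold change of 0.64 ± 0.21 had an adjusted p of 0.0673 (edgeR). In all, 3 of the 6 genes did not overlap between the groups, as did 17.7% of all genes tested.

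Slit2, the other ligand, was at 83.6, 54.8, 86.4 and 84.6 CPM in controls and 57.8, 57.6, 61.4 and 74.7 CPM in mutants. Control replicate 2 lay below every mutant and the other 3 controls above them, and the log2 fold change was -0.30 ± 0.14 (adjusted p = 0.199, edgeR). Without control replicate 2 it was -0.43 with an adjusted p of 0.0347 (edgeR). Robo1 lay at 55.4 to 59.3 CPM in controls and 48.7 to 56.7 CPM in mutants, with a log2 fold change of -0.090 ± 0.091 (adjusted p = 0.578, edgeR). Robo3 had 0 to 13 reads in controls and 4 to 20 in mutants, did not pass the filter on low counts, and had a log2 fold change of 1.06 ± 1.01 when all genes with at least 1 count were kept (adjusted p = 0.560, edgeR).

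**Figure D4:**
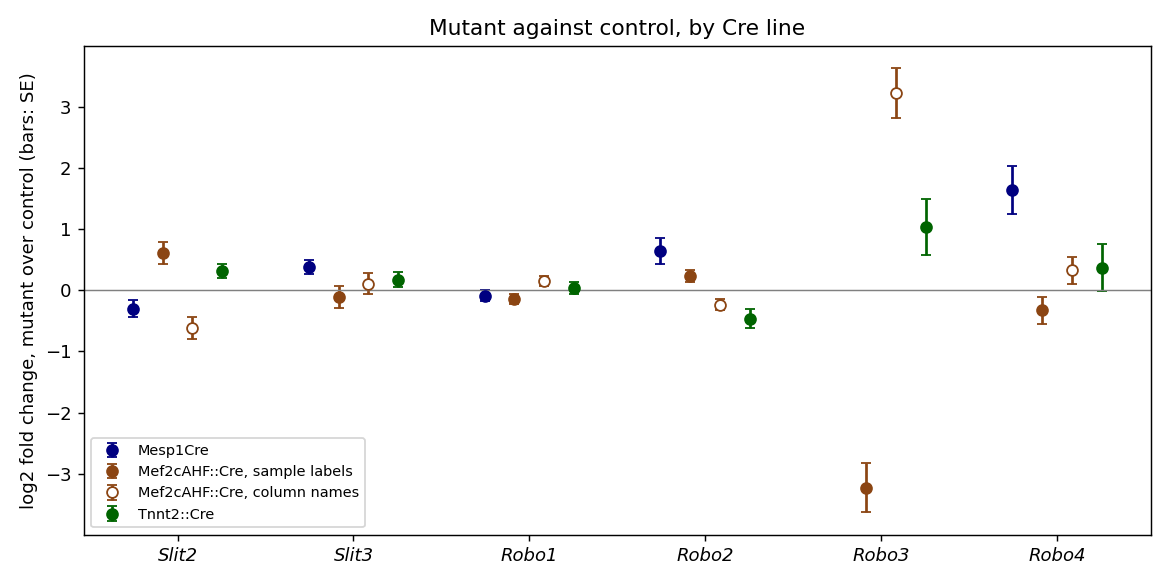
Log2 fold change of mutant over control (y axis, bars are SE) for each gene in the 3 Cre lines, with Mef2cAHF::Cre drawn by the sample labels (filled) and by the column names (open, the same values with the sign turned). Robo3 in Mesp1Cre is not drawn because it did not pass the filter on low counts. The largest values are Robo3 in Mef2cAHF::Cre, at -3.23 or 3.23, and Robo4 in Mesp1Cre at 1.64.

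In Mef2cAHF::Cre right ventricle and outflow tract, Robo3 differed between the groups more than any other member in any line. It was at 0.291, 0.414 and 0.582 CPM in the libraries labelled mutant, from 8, 11 and 21 reads, and at 4.15, 2.34 and 5.92 CPM in those labelled control, from 119, 65 and 153 reads. The groups did not overlap, the lowest labelled control being at 2.34 CPM and the highest labelled mutant at 0.582 CPM. The log2 fold change was -3.23 ± 0.41 by the sample labels (adjusted p = 0.00676, edgeR) and 3.23 by the column names. Robo3 was the member called of the 6 tested, where 2.85% of 16920 genes were called and 1.04% were called lower by the sample labels. Without the library labelled mutant replicate 2 the value was -3.19 with an adjusted p of 0.0577 (edgeR), and the calls over all genes went from 482 to 75. The libraries labelled mutant lay within the range of the other E11.5 hearts, whose Robo3 values ran from 0.262 to 0.582 CPM in Tnnt2::Cre controls and from 0.503 to 1.29 CPM in Tnnt2::Cre mutants, each line scaled by itself.

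The neighbouring gene Robo4 did not follow Robo3. Its values were 4.12, 3.58 and 5.07 CPM in the libraries labelled mutant and 5.55, 6.63 and 3.87 CPM in those labelled control, and the groups overlapped (log2 fold change -0.33 ± 0.22, adjusted p = 0.506, edgeR). Neural and neural crest genes moved in both directions. Sox2, a neural progenitor factor, was at most 0.332 CPM in the libraries labelled mutant and at least 0.619 CPM in those labelled control, the direction of Robo3, while Sox10, a neural crest factor, was at 0.452 to 0.692 against 0.108 to 0.387 CPM (both named after their values were seen). The list summed to 17.7 to 22.1 CPM in the libraries labelled mutant and 19.6 to 24.7 CPM in those labelled control, 0 of 7 tested were called, and 0 of 10 were without reads in a whole group. Epicardial genes moved with Robo3, with 9 of 10 lower by the sample labels, 1 called and a median of -0.29, and their sums did not overlap (265 to 271 CPM in the libraries labelled mutant, 285 to 373 CPM in those labelled control). Macrophage genes also moved with Robo3 by their median of -0.56, with 1 of 7 higher and 0 called, and their sums overlapped. Cardiomyocyte genes went the other way, with 8 of 10 higher, 0 called, a median of 0.19 and overlapping sums. Erythroid genes had a median of 0.91 with 8 of 9 higher and 0 called, and their sums overlapped. The part of these cell types in the Robo3 value was not tested. Y-linked genes were expressed in 0 of 3 labelled mutant and 1 of 3 labelled control libraries.

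Slit2 was the other member that did not overlap in Mef2cAHF::Cre, so 2 of 6 did, beside 24.0% of all genes. It was at 226, 225 and 241 CPM in the libraries labelled mutant and 176, 175 and 101 CPM in those labelled control. Labelled control replicate 3 was the lowest of the 6, and the log2 fold change was 0.61 ± 0.18 (adjusted p = 0.116, edgeR). Without that library it was 0.39 with an adjusted p of 0.0380, and with all genes of at least 1 count kept it was 0.61 with an adjusted p of 0.00153 (edgeR). Robo2 was at 55.0 to 60.0 CPM against 43.4 to 55.0 CPM (0.24 ± 0.092, adjusted p = 0.220), Robo1 at 161 to 187 against 180 to 209 CPM (-0.15 ± 0.084, adjusted p = 0.403) and Slit3 at 44.4 to 58.1 against 47.2 to 74.5 CPM (-0.11 ± 0.17, adjusted p = 0.812), all by edgeR.

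In Tnnt2::Cre hearts, where deletion is in cardiomyocytes, 0 of the 6 genes passed the threshold in edgeR and 0 in DESeq2, with 0.293% of 17045 genes called by edgeR. At an unadjusted p below 0.05, 2 members were reached, Slit2 and Robo2, and 11.9% of all genes. Slit2 was at 145, 189 and 168 CPM in mutants and 128, 131 and 144 CPM in controls (log2 fold change 0.32 ± 0.12, adjusted p = 0.348, edgeR). Robo2 was at 15.7, 23.1 and 22.9 CPM in mutants and 29.4, 26.2 and 29.7 CPM in controls (-0.47 ± 0.16, adjusted p = 0.314, edgeR). Neither gene overlapped between the groups, 2 of 6 beside 17.1% of all genes. Robo3 was at 1.29, 0.503 and 0.718 CPM in mutants and 0.582, 0.360 and 0.262 CPM in controls, from 9 to 54 reads a library (1.03 ± 0.47, adjusted p = 0.428, edgeR). Slit3 (0.17 ± 0.13), Robo1 (0.039 ± 0.093) and Robo4 (0.37 ± 0.38) overlapped between the groups. Robo4 in mutant replicate 2, at 7.54 CPM, was above the other libraries of the line, which held 2.28 to 4.40 CPM, and without it the log2 fold change of Robo4 was -0.14. Erythroid genes summed to 18050 to 122405 CPM in mutants and 95784 to 149846 CPM in controls, with 9 of 9 lower and 0 called. Epicardial genes were higher in 10 of 10 with 1 called (median 0.37, 304 to 413 CPM summed in mutants and 262 to 316 in controls), and 9 of 10 cushion and mesenchyme genes were lower with 1 called (median -0.24, 1744 to 2285 CPM against 2149 to 2362). Their part in the Slit2 and Robo2 values was not tested.

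The changes in the 3 lines were compared as interactions in a fit of all 20 libraries, which again uses the contrasts known when the genes were chosen. The change of Robo2 differed between Mesp1Cre and Tnnt2::Cre by 1.10 ± 0.26 on the log2 scale (adjusted p = 0.0300, edgeR), 1 of 6 members beside 3.04% of 18391 genes. Between Mesp1Cre and Mef2cAHF::Cre by the sample labels, 3 of 6 members differed beside 11.3% of genes. They were Robo3 (4.31 ± 0.98, adjusted p = 0.00704), Slit2 (-0.93 ± 0.24, adjusted p = 0.0141) and Robo4 (1.95 ± 0.51, adjusted p = 0.0159), all by edgeR. Robo3 had not passed the filter on low counts when Mesp1Cre was fitted by itself, so its Mesp1Cre side rests on few reads. Between Mef2cAHF::Cre and Tnnt2::Cre by the sample labels Robo3 differed (-4.28 ± 0.97, adjusted p = 0.0187, edgeR), 1 of 6 beside 3.19% of genes. By the column names 0 of 6 differed in both comparisons that include Mef2cAHF::Cre (edgeR, beside 1.63% and 0.00% of genes), with 2 members, Slit2 and Robo3, at an unadjusted p below 0.05 against Tnnt2::Cre (2.57% of genes), and 4, Robo1 to Robo4, against Mesp1Cre (16.2% of genes).

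Of 31 further genes of Slit and Robo signalling, 30 were in the table, of which 28 were tested in Mesp1Cre and in Tnnt2::Cre and 30 in Mef2cAHF::Cre. By edgeR 2 of them passed the threshold in Mesp1Cre and 1 in Tnnt2::Cre, all lower in mutants, beside 5.29% and 0.217% of all genes called lower. The share of the list was thus near that of all genes in Mesp1Cre, and in Tnnt2::Cre it was a single gene. Flrt3, a leucine-rich repeat membrane protein that binds Robo1, fell in Mesp1Cre (log2 fold change -0.47 ± 0.13, adjusted p = 0.0358) and in Tnnt2::Cre (-0.71 ± 0.099, adjusted p = 0.0271). Gpc1, a heparan sulfate proteoglycan that binds Slit, fell in Mesp1Cre (-0.64 ± 0.19, adjusted p = 0.0483). In Tnnt2::Cre Gpc1 had a like value that did not pass the threshold (-0.66 ± 0.11, adjusted p = 0.0651). In Mef2cAHF::Cre by the sample labels Flrt3 was at 0.15 ± 0.13 (adjusted p = 0.602) and Gpc1 at 0.28 ± 0.10 (adjusted p = 0.191), all by edgeR. The medians of the list were -0.034, -0.0041 and -0.027, close to the medians of all genes. Among other guidance families in Mesp1Cre, semaphorin and plexin genes had 4 of 29 called higher and 2 lower, ephrin and Eph genes 0 of 17 higher and 1 lower, and netrin genes and their receptors 0 of 11. In Mef2cAHF::Cre the same families had 2 of 31 higher and 1 lower, 1 of 19 higher and 0 lower, and 0 of 12 (1.81% of all genes were called higher and 1.04% lower), and in Tnnt2::Cre 0 of 30, 0 of 19 and 0 of 12.

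Between the controls, 7 of 28 genes of the signalling list were higher and 6 lower at E9.0 than at E11.5, with a median of -0.0080, where 18.8% of all genes were higher and 19.6% lower. In right ventricle and outflow tract 15 of 30 were higher and 4 lower than in whole heart by the sample labels, with a median of 0.34 against 0.016 over all genes, of which 18.6% were higher and 21.2% lower. By the column names 12 of 30 were higher and 3 lower, with a median of 0.22 against 0.0023 over all genes, of which 17.3% were higher and 21.3% lower.

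Likeness to other genes was measured as Pearson's r of deviations from the 6 group means over 20 libraries, among 14158 genes with a mean of at least 1 CPM. It is a description over libraries of 3 Cre lines that also differ in depth. Slit2 was most like Mrgpre (0.771) and Sgce (0.764), and Slit3 most like D19Wsu162e (0.897), Tnfrsf18 (0.875) and Chd3 (0.866). Robo1 was most like 7SK (0.846), Vapb (0.806) and AC115820.1 (0.794), Robo2 most like Fmod (0.844), Col8a2 (0.840) and Ankrd13d (0.823), and Robo4 most like Sdr39u1 (0.881), C230081A13Rik (0.879) and Wdr19 (0.869). No member was among the 3 genes most like another. Within the family r ran from -0.197 (Slit2 and Robo2) to 0.452 (Slit2 and Robo4). Robo3 was below the level needed.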

How the data were processed

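RNA was measured in 20 libraries of mouse embryonic heart, 4 mutants and 4 controls for Mesp1Cre and 3 of each for Mef2cAHF::Cre and Tnnt2::Cre. Per the labels, cDNA was made and amplified with a NuGEN Ovation kit, and the build was mm9 with TopHat2 2.0.8b among the tools. The study's methods name a TruSeq kit and FeatureCounts. The deposited table holds raw read counts, not normalized by the authors, and the FPKM they computed, which equals the count scaled by gene model length and library total. The strand setting is not given in the sources used here.

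Groups followed sample titles. For Mef2cAHF::Cre the column names give the reverse genotypes. For Mesp1Cre the labels give E9.0 and the protocol text E11.5.

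Counts of each line were fitted by themselves with edgeR 4.0.16 in R 4.3.3 (filterByExpr, TMM scaling, quasi-likelihood F test), and p was adjusted over all genes tested by Benjamini-Hochberg at 0.05. SE is the size of the log2 fold change over the root of its F statistic. CPM are after TMM, scaled within a line for mutant against control and marker sums, and over all 20 libraries for controls of different lines. Alternatives were DESeq2 1.42.0, DESeq2 size factors, all genes with at least 1 count, limma 3.58.1 on log2(FPKM + 0.1) and log2(FPKM + 1), hemoglobin genes left out, the 20-library fit, a replicate block, each replicate left out, the column names, and, chosen after seeing the data, sex as a covariate. Sex was read from Y-linked genes at 10 CPM or more. Fits were tested on simulated data. Replicates are separate libraries, and the labels do not name the animals, so p-values measure the spread between libraries.

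Members, gene lists and tests were chosen with earlier results of these data known. Named genes are the 6 members, Kmt2d, Slit1, genes of the signalling list past 0.05 in a line, and the 3 genes most like each member, of which 1 is not reported here. Promoter windows were read from the mm9 genome at the 5′ ends of the table's gene models, with genes on 1 chromosome left out. Variance-stabilised values and other data of the study were not analysed here.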

Additional observations from a re-analysis of the deposited data

Results flagged for a closer look

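In 2 of 12 sets of 4 libraries looked at (6 genes in the Mesp1Cre controls and mutants), a library stood apart by the gap to its nearest neighbour as a share of the whole range, beyond Dixon's 95% critical value. Slit2 in the Mesp1Cre controls had a gap share of 0.912, from control replicate 2 at 54.8 CPM below 83.6 to 86.4 CPM. Robo2 in the Mesp1Cre mutants had a gap share of 0.905, from mutant replicate 1 at 24.5 CPM above 15.7 to 16.5 CPM. Chance flags about 1 in 20 sets.

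In 5 tests the change in a line differed from the change in another. All use the contrasts known when the genes were chosen, so they describe and support nothing. The difference was 1.10 (log2) for Robo2 between Mesp1Cre and Tnnt2::Cre, where all 4 mutants were above the controls in the first and all 3 below them in the second. Between Mesp1Cre and Mef2cAHF::Cre by the sample labels it was -0.93 for Slit2, 4.31 for Robo3 and 1.95 for Robo4, and for Robo3 between Mef2cAHF::Cre and Tnnt2::Cre the difference was -4.28. By the column names the last 4 were 0.29, -2.18, 1.29 and 2.20, none past the threshold by edgeR, with unadjusted p of 0.227, 0.0394, 0.0186 and 0.0333.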

How the results depend on the processing

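In the comparison of stages Slit2, Slit3, Robo1 and Robo2 passed the threshold under every alternative run and with each replicate left out. In the comparison of tissues Robo1 and Robo2 did so, also by the column names. Robo3 and Robo4 are given without a test in both comparisons, and Slit2 in the comparison of tissues. In Mesp1Cre the count of 1 became 3 with DESeq2, 2 with limma on log2(FPKM + 0.1) and on log2(FPKM + 1), 2 in the 20-library fit, 0 with sex as a covariate, and 0 to 2 with a replicate left out. In Mef2cAHF::Cre the count of 1 became 2 with all genes of at least 1 count and with DESeq2, and 0 to 2 with a replicate left out. Tnnt2::Cre stayed at 0. By the column names both effect differences with Mef2cAHF::Cre had a count of 0. Calls over all genes also moved by over 1.5 times: from 1821 in Mesp1Cre to 899 with sex as a covariate, 3593 in the 20-library fit and 1052 to 2161 with a replicate left out; from 482 in Mef2cAHF::Cre to 1311 with all genes kept, 1079 with DESeq2, 291 and 253 with limma, 129 in the 20-library fit, and 78, 75 and 148 without the libraries labelled mutant replicate 1, 2 or 3; and from 50 in Tnnt2::Cre to 360 with DESeq2, 120 with all genes kept, 82 in the 20-library fit, 22 and 19 with limma, 17 with sex as a covariate, and 4 to 896 with a replicate left out, 896 being without mutant replicate 1. The cause was not tested.

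Replicate numbers are shared between mutants and controls, but same-numbered libraries correlated above 0.1 in only 1 of 3 pairs in Mef2cAHF::Cre and Tnnt2::Cre and 0 of 4 in Mesp1Cre, so they were taken to share a number only. With the replicate block the counts of members stayed 1, 1 and 0, and calls over all genes were 1384, 517 and 28 against 1821, 482 and 50.

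Directions turned for large and small values alike by the column names, and elsewhere only for values no larger than their SE. By the column names the log2 fold changes in Mef2cAHF::Cre are -0.61 (Slit2), 0.11 (Slit3), 0.15 (Robo1), -0.24 (Robo2), 3.23 (Robo3) and 0.33 (Robo4), the differences of right ventricle and outflow tract from whole heart are -0.11 (Slit3) and -0.0087 (Robo3), and the effect differences from Mesp1Cre are 0.29 (Slit2), -0.26 (Robo1) and -2.18 (Robo3) and between Mef2cAHF::Cre and Tnnt2::Cre -0.93 (Slit2), 0.11 (Robo1) and 2.20 (Robo3). On FPKM, which carries a shift of all genes of 0.15 in Mesp1Cre at the pseudocount of 0.1 (-0.13 in Mef2cAHF::Cre, 0.11 in Tnnt2::Cre and 0.22 between tissues), Robo1 in Mesp1Cre was 0.065 and 0.058. Slit3 in Mef2cAHF::Cre was 0.14 with sex as a covariate and -0.23 to 0.14 with a replicate left out. With a replicate left out, Robo4 in Tnnt2::Cre ran from -0.14 to 0.63, Robo1 there from -0.0017 to 0.11, and between tissues Slit2 ran from -0.063 to 0.27 and Slit3 from -0.25 to 0.12, Slit3 being -0.021 with all genes kept and -0.0058 with DESeq2. Robo3, at 0 to 54 reads outside the Mef2cAHF::Cre libraries labelled control, is limited by depth.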
